A study of Rattus norvegicus with 3 samples.

Results

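Cxcl12, a chemokine made by stromal cells, and its receptors Cxcr4 and Ackr3 were followed through the annotated cells of 2 single-cell RNA libraries of rat thymus. The 3 genes were taken by their symbols from the 34034 features of the count matrices, and all 3 were measured in both libraries. Each cell carried the projected label of the authors' annotation where one was given, and the initial cluster otherwise.

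CXCL12 is a secreted protein that draws in cells carrying CXCR4, a receptor that signals through inhibitory G proteins and moves the cell along the ligand's gradient. ACKR3, also called CXCR7, binds the same ligand together with CXCL11 and adrenomedullin, recruits arrestins in place of G proteins, and clears the ligand by taking it into the cell. In the thymus, CXCL12 from cortical stroma is known to help place early T cell precursors in the cortex, and CXCR4 acts beside the pre-T cell receptor when those precursors pass the first checkpoint of the antigen receptor.

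The tissue came from 8-week-old Lewis rats, an inbred strain, with no genetic change or treatment named in the labels. The stromal library came from a Liberase digest from which CD45-negative cells were enriched on magnetic columns and then sorted by flow cytometry, CD45 being a surface protein of blood-derived cells. The thymocyte library held the T cell precursors and other cells of a collagenase digest without that enrichment. With a single library in either group, nothing below was tested against a spread between replicates and p-values are left out.

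There were 13226 annotated stromal-library cells, with a median of 9087.5 unique molecular identifiers (UMIs, tags that count captured RNA molecules) per cell, and 8546 annotated thymocyte-library cells, with a median of 3994. Only 28 annotated barcodes occurred in both libraries, 0.328% of thymocyte-library cells and 0.212% of stromal cells. The files do not spell out the label names. TMC1 to TMC4 and capFb are mesenchymal labels, TEC labels are epithelial, and aEC, capEC and vEC are endothelial. Summed levels of marker genes were highest in capFb for mesenchymal genes, in capEC for endothelial genes, in aEC for arterial genes and in vSMC/PC for genes of mural cells. Some labels were less clear. The epithelial label aaTEC2 held 34804 UMIs per 1000000 of mesenchymal genes and 1950 of epithelial genes. TMC4 held 9456 of mesenchymal genes, beside 9765 in aEC. Both were kept in the class of their names. Levels are UMIs of a gene per 1000000 UMIs of a label (CPM). Ranges in brackets are exact 95% Poisson intervals for a level, exact conditional intervals for a ratio and Clopper-Pearson intervals for a share of cells. All of them cover counting error only, and how many animals gave each library is not given in the sources used here.

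The start regions of the ligand gene and of its signalling receptor are shown because the later sections turn on how differently these genes were spread over the labels. Each sequence holds the 250 bases before the RefSeq start on the GRCr8 build. Cxcl12 lies on the plus strand at chr4:152060531-152060780 and Cxcr4 on the minus strand at chr13:42634289-42634538. Capitals mark matches, on either strand, to the GC box GGGCGG bound by SP1-type factors, to the TATA box TATAAA and to the palindromic NRF1 box, which the Cxcr4 window holds directly before its last GC box.
Cxcl12: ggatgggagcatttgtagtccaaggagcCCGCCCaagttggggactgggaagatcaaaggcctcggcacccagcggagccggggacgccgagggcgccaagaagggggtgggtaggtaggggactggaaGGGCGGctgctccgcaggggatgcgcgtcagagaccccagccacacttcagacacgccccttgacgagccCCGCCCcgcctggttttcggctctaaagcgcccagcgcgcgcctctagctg
Cxcr4: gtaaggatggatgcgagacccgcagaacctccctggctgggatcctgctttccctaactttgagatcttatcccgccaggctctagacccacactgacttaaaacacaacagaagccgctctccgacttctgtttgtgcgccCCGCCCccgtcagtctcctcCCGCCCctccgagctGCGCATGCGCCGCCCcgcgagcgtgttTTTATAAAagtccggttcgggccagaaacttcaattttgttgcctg

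The Cxcl12 window held 3 GC boxes, no TATA box and 67.6% G or C bases, against a median of 51.2% over the same window of 33469 RefSeq starts. The Cxcr4 window held 3 GC boxes, of which the last shares a base with the NRF1 box that begins 73 bases before the start, and TATA matches on both strands that overlap each other from 46 bases before the start. The same NRF1 box occurred in 0.762% of all windows, a TATA box in 12.9% and a GC box in 30.5%. The corresponding window of Ackr3, chr9:98247104-98247353 on the plus strand, held a TATA match 54 bases before its start and no GC box. RefSeq begins the Ackr3 gene at base 98247300, inside this window and at the first base of that match, so the window is not wholly upstream of the gene. The core letters ACGTG, which hypoxia-inducible factors bind and which 16.6% of windows hold, were not found in any of the 3 windows. These are matches of letters and were not measured as bound sites.

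Cxcl12 was highest in arterial and capillary endothelium, next in early Pr and cortical epithelium, and lower in mesenchyme. The highest level stood in aEC at 3411 CPM (3284 to 3541) on 2732 UMIs, followed by capEC at 3286 CPM (3233 to 3340) on 14622 UMIs. The ratio of aEC to capEC was 1.04 (0.996 to 1.08), although the mean of the CPM of the cells gave a ratio of 1.41. Within both initial clusters aEC was higher, at 4695 CPM (4492 to 4903) beside 3757 (3694 to 3822) in Endo-1 and 1908 (1770 to 2055) beside 1500.5 (1422 to 1582) in Endo-2. The lower cluster Endo-2 held 29 of 90 aEC cells and 101 of 636 capEC cells. Next came early Pr, an epithelial label, at 1866 CPM (1842 to 1891) and cTEC, the cortical epithelial cells, at 1649.9 CPM (1614 to 1686). The mesenchymal labels lay between 425.5 CPM in capFb and 1124 CPM in TMC2, with TMC3 at 987, TMC1 at 872 and TMC4 at 768.

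**Figure D1:**
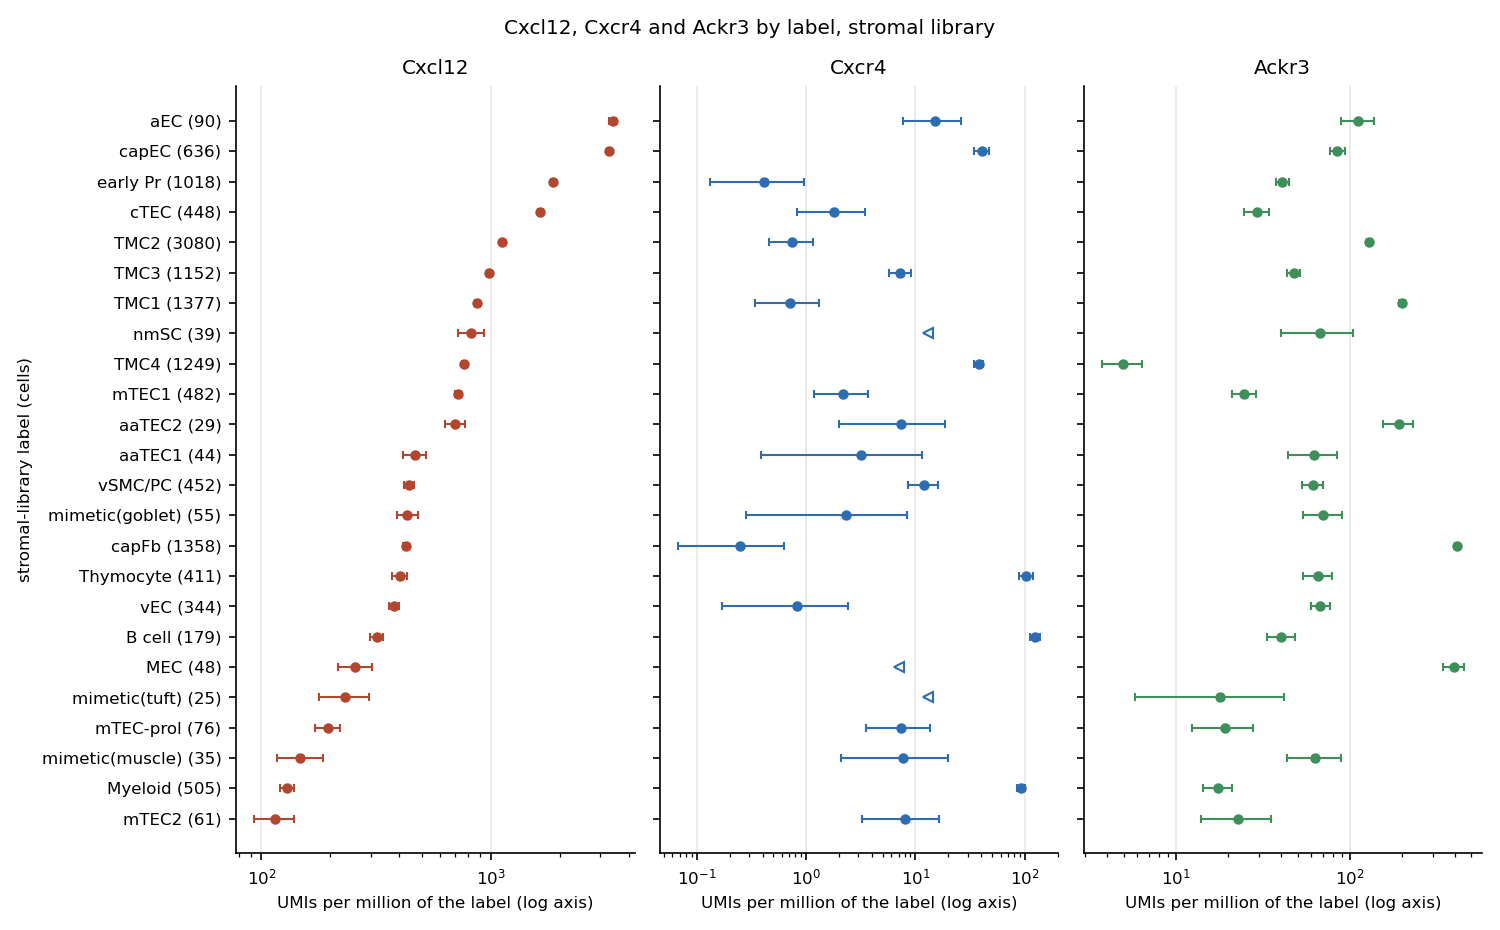
Levels of the 3 genes in the 24 stromal-library labels of at least 20 cells, in UMIs per 1000000 UMIs of the label on log axes. Points are levels, bars are exact 95% Poisson intervals, open triangles mark the upper limit for labels without a UMI, and labels run by Cxcl12 from 3411 in aEC down to 114 in mTEC2. Endothelial aEC and capEC lead for Cxcl12, the B cell, Thymocyte and Myeloid labels for Cxcr4, and capFb and MEC for Ackr3.

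The medullary epithelial labels (mTEC) carried less of the ligand than cTEC and early Pr. In mTEC1 the level was 719 CPM (699 to 740.3), and in mTEC2, another medullary label, it was 114 CPM (93.0 to 139), the lowest of the 24 labels with at least 20 cells. The summed cTEC and early Pr cells stood at 1803 CPM and the summed mTEC1, mTEC2 and mTEC-prol cells at 576 CPM, a ratio of 3.13 (3.04 to 3.23). After each cell was thinned to 1000 UMIs, 79.3% of early Pr cells and 74.7% of cTEC still held a Cxcl12 UMI, against 44.3% of mTEC1. Neighbouring labels in the order of levels had overlapping intervals in 15 of 23 pairs.

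Veins stood apart from capillaries. In vEC the level was 378 CPM (359 to 399.1), and the ratio of capEC to vEC was 8.68 (8.22 to 9.18). A Cxcl12 UMI was present in 87.3% of capEC cells (median depth 5805.5 UMIs) and in 54.1% of vEC cells, which were deeper (9585.5). The Thymocyte label, whose cells in the other library held next to no Cxcl12, had a UMI in 22.1% of its cells (median depth 2648). After thinning the shares were 70.5% in capEC, 17.4% in vEC and 12.1% in Thymocyte. Within the initial cluster Endo-1 the ratio of capEC to vEC was 11.2 (10.5 to 11.9), and within Endo-2 it was 2.64 (2.35 to 2.97). The contrasts of capEC with vEC, of cTEC and early Pr with the mTEC labels, of TMC4 with the other mesenchymal labels, of capFb with TMC4 and of DN with DP were chosen after the levels had been seen, as were those between initial clusters.

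The spread from cell to cell differed between labels of like level. In early Pr the median cell held 20 Cxcl12 UMIs and the highest 128, and in aEC the median cell held 21 and the highest 113. In capEC the median cell held 10.5 UMIs, the highest 184, and the top 10% of cells carried 44.1% of the label's Cxcl12 UMIs. In TMC1, a mesenchymal label, the top 10% of cells carried 61.1% and the highest cell held 271, while in TMC4 they carried 36.6% and the highest cell held 64. Cxcl12 was thus spread most evenly in early Pr, where the top 10% of cells held 22.2%.

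Through its number of cells the mesenchyme still held the largest share of this library's Cxcl12 UMIs. The shares are of cells captured after digestion, enrichment and sorting, and shares in the tissue were not measured. Its 5 labels made up 62.1% of stromal cells and 53.2% of all Cxcl12 UMIs of the library. The epithelial labels made up 17.4% of cells and 28.9% of the UMIs, and the endothelial labels 8.11% of cells and 14.6% of the UMIs. Summed over labels, the level was 866 CPM in mesenchyme, 1285 in epithelium and 2116 in endothelium. The ratio of mesenchymal to epithelial cells was 0.674 (0.665 to 0.682) and that of mesenchymal to endothelial cells 0.409 (0.403 to 0.416).

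The initial clusters split some labels sharply. In mTEC1 the cells of cluster TEC-b held 1549 CPM of Cxcl12 (1493 to 1607) and those of cluster TEC-d 207 CPM (193 to 223), a ratio of 7.47 (6.89 to 8.10). Within TEC-b, cTEC stood at 1934 CPM, 1.25 times mTEC1 (1.20 to 1.31), a smaller ratio than between the full labels at 1649.9 and 719 CPM. Within cTEC, the 72 cells of cluster TEC-a held 449 CPM (397 to 507) at a median depth of 4518 UMIs, and the 311 cells of TEC-b held 4.30 times that level (3.81 to 4.89). Initial clusters of 1 epithelial label thus differed by more than cTEC and mTEC1 did inside a cluster.

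**Figure D2:**
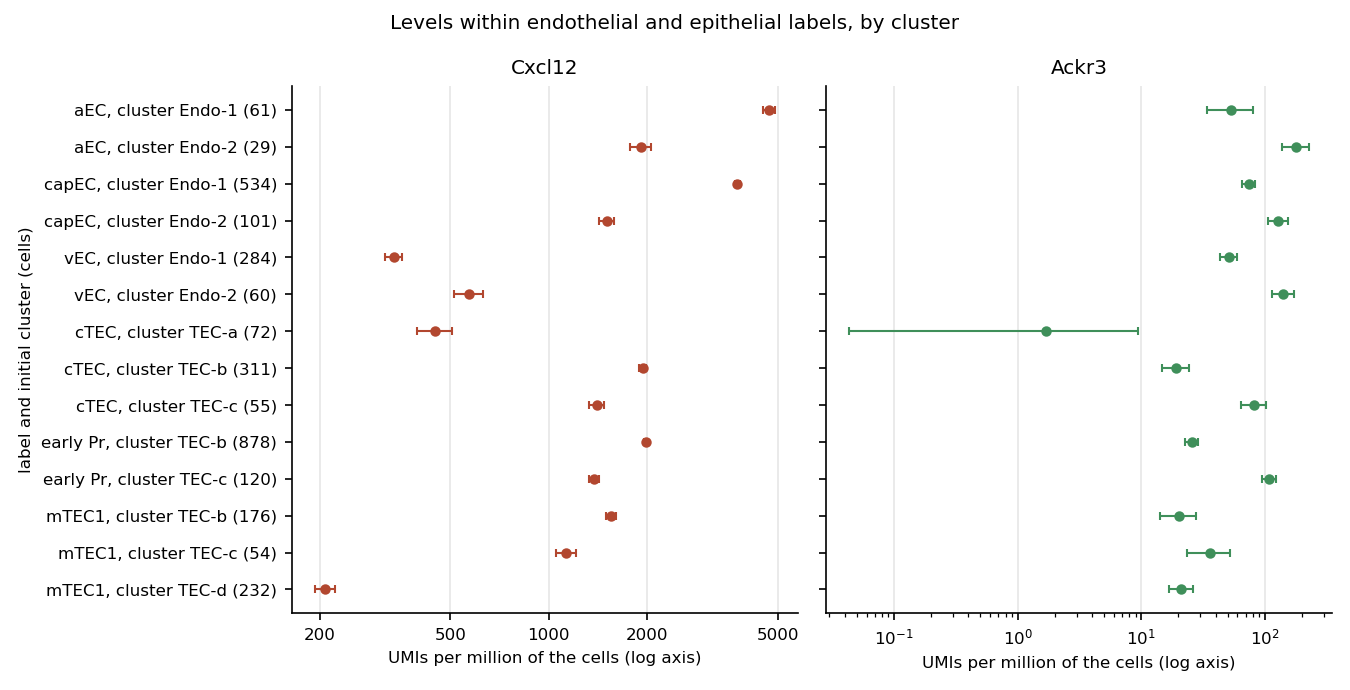
Cxcl12 (left) and Ackr3 (right) in endothelial and epithelial labels divided by initial cluster, in UMIs per 1000000 UMIs of the cells on log axes, for parts of at least 20 cells. Bars are exact 95% Poisson intervals. Cxcl12 is 1549 in mTEC1 cells of cluster TEC-b and 207 in those of TEC-d, and Ackr3 is higher in clusters Endo-2 and TEC-c than in Endo-1 and TEC-b.

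Clusters Endo-2 and TEC-c also carried mesenchymal genes. The 7 mesenchymal markers (collagens Col1a1, Col1a2 and Col3a1, matrix proteins Dcn and Lum, receptors Pdgfra and Pdgfrb) summed to 17754 CPM in capEC cells of Endo-2 and to 689 CPM in those of Endo-1. In the 29 capEC cells of Endo-2 with fewer than 3 such UMIs, Cxcl12 stood at 274 CPM (185 to 392), against 3667 CPM (3578 to 3758) in the 286 such cells of Endo-1, at median depths of 2670 and 5188.5 UMIs. In capEC as a whole, cells with fewer than 3 mesenchymal UMIs held 3467 CPM of Cxcl12, close to the 3286 CPM of all its cells. In cTEC the same restriction gave 1856 CPM and in early Pr 2036 CPM, so the high levels were as large in cells with few mesenchymal UMIs.

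Labels of blood cells in the stromal library held most of their Cxcl12 in few cells. A UMI was found in 22.2% of Myeloid cells, 22.1% of Thymocyte cells and 50.3% of B cell-labelled cells. In the Myeloid label, the 31 cells with at least 5 UMIs, 6.14% of the label, carried 82.8% of its Cxcl12 UMIs. The Thymocyte label had 85.5% of its Cxcl12 UMIs in 33 cells and the B cell label 92.1% in 49 cells. Cells with at least 3 UMIs of mesenchymal, epithelial, endothelial or mural markers held 98.3% of the Cxcl12 UMIs in Myeloid, 97.7% in Thymocyte and 99.8% in B cell. Such cells were the larger part of each label, with 327 of 505, 255 of 411 and 159 of 179 cells. The 26 Thymocyte cells without any such marker UMI held 0 Cxcl12 UMIs.

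In the thymocyte library Cxcl12 was nearly confined to 10 cells of one label. The 8376 cells of T-lineage labels held 7 Cxcl12 UMIs, 0.113 CPM (0.0454 to 0.232). In DP, the double-positive cells that carry Cd4 and Cd8, 0.0769% of cells held a UMI (median depth 3205.5 UMIs). This share was taken as the background of that library, which was not measured by itself. The label B+myeloid held 180 of the library's 187 Cxcl12 UMIs, in 10 of its 170 cells, and 177 of them in 8 cells. In the 71 B+myeloid cells without a stromal marker UMI there were 0 Cxcl12 UMIs, and 97.2% of the label's UMIs lay in cells with at least 3 marker UMIs.

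Cxcr4, the signalling receptor, was found in all thymocyte labels of at least 20 cells, mostly between 60.0 and 152 CPM. The smaller NKT label, with 18 cells, lay above that range at 282 CPM (209 to 372) on 50 UMIs. DP cells stood at 129 CPM (124 to 134) on 2444 UMIs and the 4 mature single-positive labels together at 129 CPM (117 to 141) on 467 UMIs, a ratio of 1.00 (0.910 to 1.11). Levels of the labels with at least 20 cells ran from 152 CPM (131 to 175) in Mature CD4-2 down to 60.0 CPM (55.5 to 64.8) in DN, the double-negative precursors, with Mature CD8-2 lower still at 21.7 CPM (9.94 to 41.3) on 9 UMIs in 27 cells. Neighbouring labels overlapped in 19 of 20 pairs. Treg at 145 CPM, Mature CD8-1 at 141, Pre DP-sig at 137 and Mature CD4-1 at 132 all overlapped DP.

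**Figure D3:**
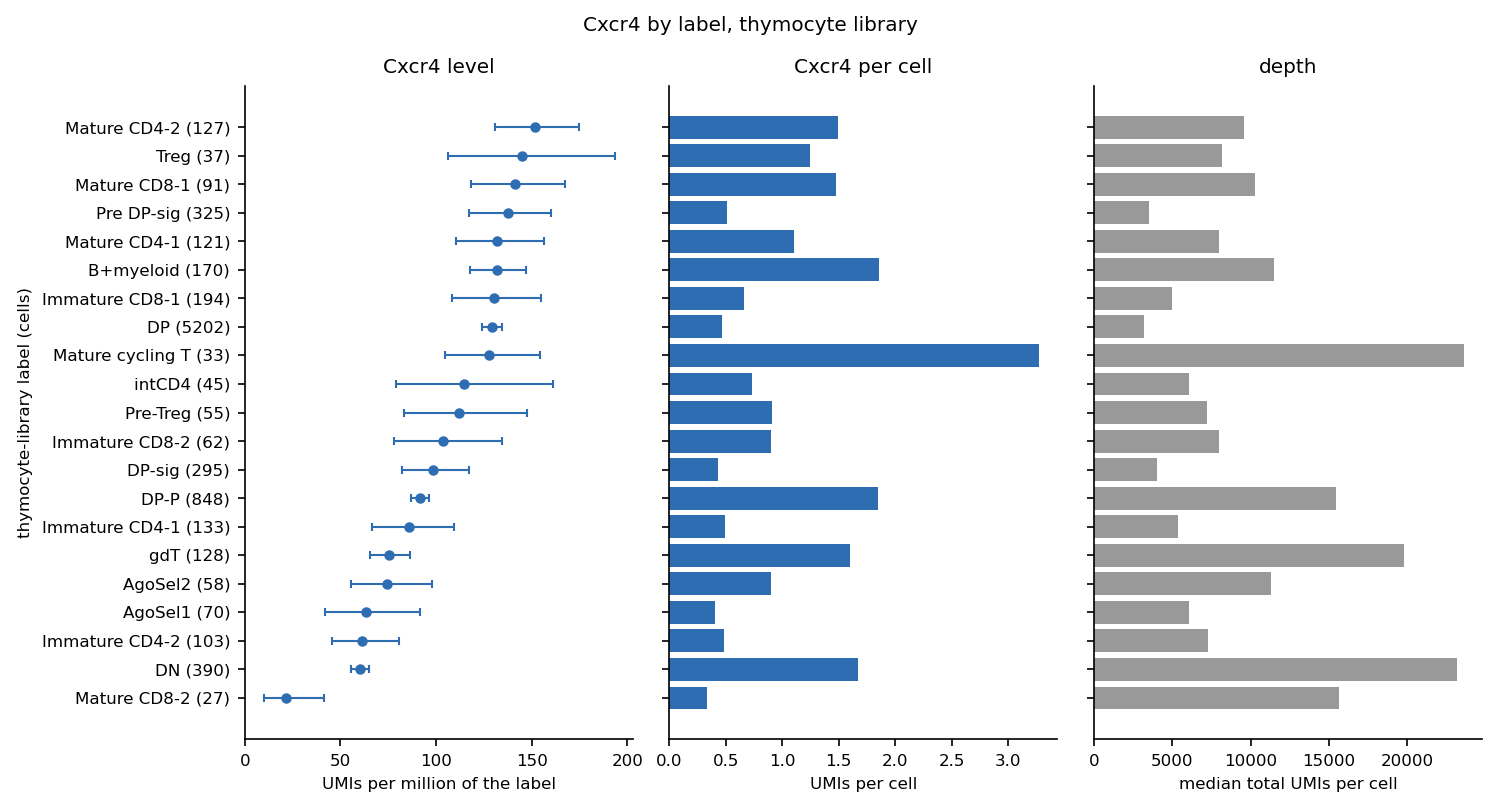
Cxcr4 in the 21 thymocyte-library labels of at least 20 cells. The left panel gives UMIs per 1000000 UMIs of the label with exact 95% Poisson intervals, the middle panel UMIs per cell and the right panel the median total UMIs per cell. DN and DP-P are low on the left (60.0 and 91.5) and high per cell (1.67 and 1.85), beside depths of 23190 and 15439 UMIs.

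The order of DN and DP turned with the scale. DN cells held 1.67 Cxcr4 UMIs per cell and DP cells 0.470, and a UMI was found in 68.2% of the former (median depth 23190.0 UMIs) and 34.0% of the latter (3205.5 UMIs). As a share of all RNA, DN stood at 0.464 of DP (0.425 to 0.507). After thinning to 1000 UMIs, 6.41% of DN cells (4.19 to 9.32) and 12.8% of DP cells (11.9 to 13.8) held a UMI. DP-P, the proliferating double-positive cells, lay between at 91.5 CPM (87.0 to 96.1), with 1.85 UMIs per cell.

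Within the early labels the level differed between initial clusters. DP-P cells of the DN cluster held 63.9 CPM (58.4 to 69.7), 1.14 times DN cells of the same cluster (0.998 to 1.30), while DP-P cells of cluster DP-P1 held 116 CPM (109 to 124), 1.82 times the DP-P cells of the DN cluster (1.63 to 2.03). DN cells held 56.2 CPM (51.1 to 61.7) in the DN cluster, 68.3 CPM (57.6 to 80.4) in cluster DP-P2 and 79.6 CPM (60.8 to 102) in DP-P3, where DP-P cells held 108 CPM (91.9 to 126). The gamma-delta label gdT, most of whose cells lay in the DN cluster, stood at 75.3 CPM (65.4 to 86.4). Among DN cells, those with a UMI of Rag1, an enzyme of receptor gene rearrangement, held 63.6 CPM (58.5 to 69.1) and those without 44.6 CPM (35.9 to 54.7), at depths of 20940.0 and 36414 UMIs. Cells with and without a UMI of Kit, the stem cell factor receptor of early precursors, held 54.3 (46.6 to 62.9) and 62.5 CPM (57.0 to 68.4), which overlap.

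Of the labels past the DP stage, some lay below DP and others did not. DP-sig stood at 98.6 CPM (82.2 to 117), Immature CD4-1 at 86.0 (66.5 to 109), AgoSel2 at 74.6 (55.7 to 97.8), AgoSel1 at 63.3 (42.1 to 91.5) and Immature CD4-2 at 61.3 (45.5 to 80.8). Each of these intervals lies below that of DP. On the CD8 side, Immature CD8-1 held 130.1 CPM (109 to 155) and Mature CD8-1 141 (118 to 167), which overlap DP, as did Immature CD8-2 at 103 (78.2 to 134). Mature CD8-2, at 21.7 CPM, lay below DP and below every other label of at least 20 cells. Immature CD4-2 and Mature CD4-2 lay far apart in the order.

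Other homing receptors separated DP from mature cells by far more than Cxcr4 did. Ccr9, the receptor for the cortical chemokine CCL25, stood at 499 CPM in DP and 68.6 in mature cells, 7.28-fold higher in DP. Ccr7, the receptor that leads cells to the medulla, stood at 0.211 CPM in DP and 39.4 in mature cells, 186-fold lower in DP on 4 UMIs. S1pr1, the exit receptor, stood at 1.32 and 159 CPM, 121-fold lower in DP, and Ccr4 at 1.74 and 15.4 CPM, 8.84-fold lower.

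Cxcr4 outside the blood lineages was found in 2 stromal labels above all. In TMC4 it stood at 38.0 CPM (34.5 to 41.7) on 439 UMIs, with a UMI in 20.8% of cells (18.6 to 23.2; median depth 8717 UMIs). In capEC it stood at 40.2 CPM (34.6 to 46.6) on 179 UMIs, with a UMI in 14.8% of cells (12.1 to 17.8; median depth 5805.5). Against these, capFb, the deeper label with a median of 11378.5 UMIs, had 4 Cxcr4 UMIs in 0.295% of its cells. This share was taken as the background of this library, which was not measured by itself. TMC2 would give 0.584% and vEC 0.581%. The vEC label had 3 UMIs, and the ratio of capEC to vEC was 48.5 (16.3 to 237). In cluster Endo-1 alone, capEC held 159 Cxcr4 UMIs in 534 cells and vEC held 0 in 284 cells. With vEC put at 3 UMIs the ratio was 44.4, which has no interval and is not a lower limit.

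The blood labels of the stromal library held the highest Cxcr4 levels. The B cell label stood at 124 CPM (112 to 138), Thymocyte at 103 (88.0 to 119) and Myeloid at 91.6 (84.1 to 99.6), and the ratio of B cell to Thymocyte was 1.21 (1.01 to 1.46). That ratio did not hold across settings. It was 0.881 after thinning, on 22 and 54 UMIs. It was 0.251 without B cell-labelled cells that had at least 3 UMIs of 10 thymocyte genes. These genes include Ptprc, which codes for CD45, so the filter can also remove B cells. It spared the Thymocyte label and left 32 of 355 Cxcr4 UMIs in the B cell label. Within the B cell label, 52 of 179 cells had no UMI of 21 thymocyte, myeloid or B cell markers and held 2 Cxcr4 UMIs, while 99.4% of the label's Cxcr4 UMIs lay in the 116 cells with at least 3 marker UMIs.

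Cxcr4 in TMC4 and capEC was also measured beside blood markers. TMC4 held 197 Cxcr4 UMIs per 100 UMIs of those 21 markers and capEC held 96.2, against 1.45 in Thymocyte, 1.67 in Myeloid and 7.69 in B cell. The 1069 TMC4 cells without a single marker UMI held 37.7 CPM (33.9 to 41.7), the level of the whole label, and a Cxcr4 UMI in 21.0% of cells. The 533 such capEC cells held 38.7 CPM (32.5 to 45.8). In mTEC2 all 7 Cxcr4 UMIs lay in cells with at least 3 blood marker UMIs, and mTEC-prol had 7 of its 10 there.

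Ackr3, the scavenging receptor, was highest in capFb and in the label MEC. In capFb it stood at 412 CPM (402 to 422) on 6664 UMIs, with a UMI in 94.1% of cells (92.7 to 95.3) and a median of 4 UMIs per cell. That label alone held 41.6% of the library's Ackr3 UMIs with 10.3% of its cells. In MEC, 48 cells of which 44 lay in cluster TEC-a, the level was 395 CPM (343 to 452) on 208 UMIs, and 79.2% of cells held a UMI. The ratio of capFb to MEC was 1.04 (0.910 to 1.20), and after thinning it was 1.83 on 568 and 11 UMIs. Unlike capFb, the MEC cells of cluster TEC-a were low in Cxcl12, at 64.5 CPM (43.5 to 92.0). Every MEC cell held at least 3 mesenchymal marker UMIs, and the 7 markers summed to 16956 CPM in the label, whose part in its Ackr3 level was not tested.

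TMC4 was the label with the least Ackr3. It held 57 UMIs, 4.93 CPM (3.74 to 6.39), with a UMI in 2.80% of cells (1.96 to 3.88), the lowest of the 24 labels. In the thymocyte library the T-lineage labels held 0 Ackr3 UMIs in 8376 cells, which allows up to 0.0594 CPM by the exact interval, and all 22 Ackr3 UMIs of that library lay in 4 B+myeloid cells. Summed over labels, the level was 170.3 CPM in mesenchyme, 80.3 in endothelium and 37.7 in epithelium, a mesenchymal to endothelial ratio of 2.12 (1.97 to 2.29). Venous and capillary cells differed little, at 67.7 and 84.7 CPM, a ratio of capEC to vEC of 1.25 (1.06 to 1.48).

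Epithelial Ackr3 differed between initial clusters, in part beside mesenchymal markers. Early Pr cells of cluster TEC-c held 109 CPM of Ackr3 (95.3 to 124) and those of TEC-b 25.5 (22.5 to 28.9), a ratio of 4.26 (3.55 to 5.11). The mesenchymal markers summed to 21573 CPM in the first and 647 in the second, and their part in this result was not tested. In cTEC the same clusters held 81.8 and 19.1 CPM. In the 425 early Pr cells with fewer than 3 mesenchymal UMIs, Ackr3 stood at 29.6 CPM (24.7 to 35.2), below the 40.9 CPM of the whole label. Of these cells 411 lay in TEC-b, so cluster and markers cannot be told apart here. Inside TEC-b the restriction did not lower Ackr3, at 29.8 CPM (24.8 to 35.5) beside 25.5 in all its cells. The label aaTEC2, at 190.4 CPM of Ackr3 in 29 cells, had 34804 CPM of these markers. Values of other epithelial cells varied. In cTEC of cluster TEC-a the markers stood at 1809 CPM and Ackr3 at 1.70 (0.0431 to 9.48), on 1 UMI in 72 cells. In aaTEC1 of cluster TEC-e the markers stood at 566 CPM and Ackr3 at 68.5 (48.7 to 93.7) on 39 UMIs. The part of the markers in these levels was not tested.

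Endothelial Ackr3 was higher in cluster Endo-2 in all 3 labels. The capEC cells of Endo-2 held 127 CPM (105 to 153) and those of Endo-1 74.0 (65.3 to 83.6). In aEC the levels were 179 CPM (138 to 228) and 53.2 (33.8 to 79.9), and in vEC 141 (114 to 173) and 51.1 (43.3 to 59.98). The mesenchymal markers were higher in Endo-2 in these labels too, at 20065 CPM beside 618 in vEC, and their part in this result was not tested. Among cells with fewer than 3 mesenchymal UMIs, capEC held 265 CPM (178 to 381) on 29 UMIs in 29 cells of Endo-2 and 81.4 CPM (68.6 to 96.0) in 286 cells of Endo-1. In those same Endo-2 cells Cxcl12 was low, so that the ligand and the scavenger ran in opposite directions between the clusters. Among such cells of vEC, Ackr3 stood at 56.4 CPM (15.4 to 145) in Endo-2 on 4 UMIs and 73.8 (60.6 to 89.0) in Endo-1, which overlap. In aEC it stood at 236 CPM (86.6 to 513) on 6 UMIs and 15.1 (3.12 to 44.3) on 3 UMIs.

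The receptors divided the mesenchyme between them. Ackr3 stood at 412 CPM in capFb, 199 in TMC1, 129 in TMC2, 47.6 in TMC3 and 4.93 in TMC4, and none of these 5 intervals overlapped. Cxcr4 stood at 0.248 CPM in capFb on 4 UMIs (0.0674 to 0.634). It was 0.712 in TMC1 (0.342 to 1.31) and 0.749 in TMC2 (0.458 to 1.16), and these intervals overlap that of capFb. In TMC3 it was 7.2 and in TMC4 38.0. TMC4, lowest in the scavenger, was thus the highest of these labels in the signalling receptor. The label capFb, highest in the scavenger, was not set apart from TMC1 and TMC2 in Cxcr4. Between capFb and TMC4, Ackr3 was 83.6-fold higher in capFb (64.4 to 111) and Cxcr4 153-fold higher in TMC4 (59.5 to 566). The ligand differed far less, with capFb at 0.554 of TMC4 (0.537 to 0.572).

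**Figure D4:**
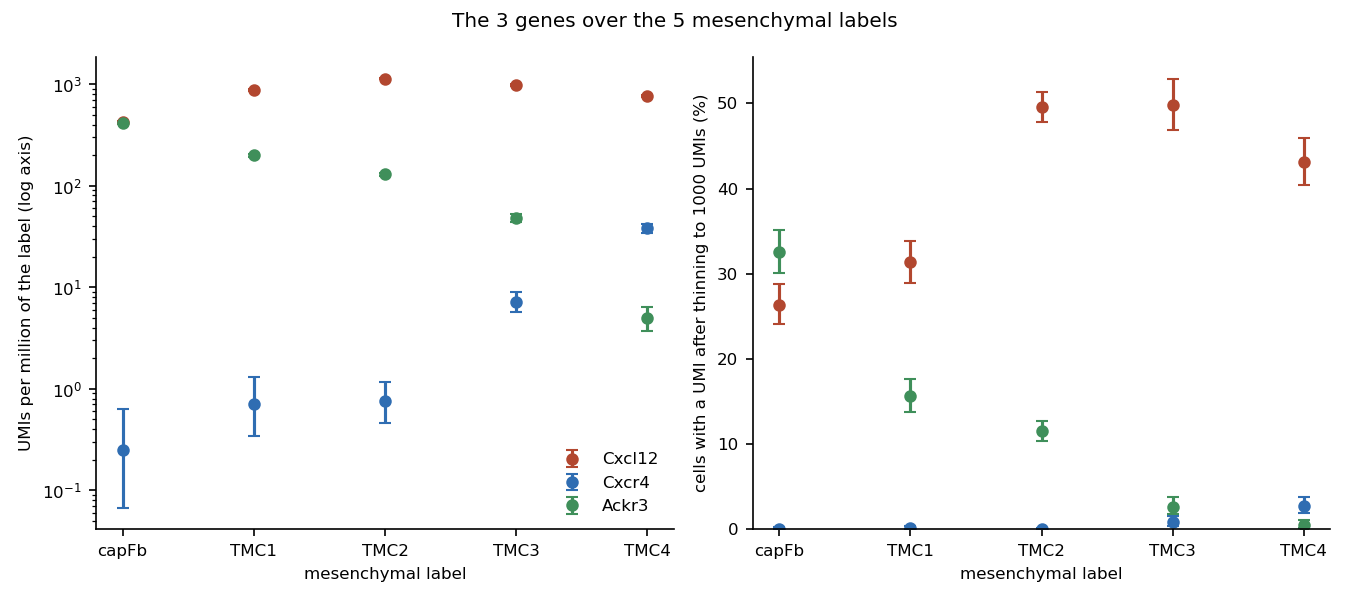
The 3 genes in the 5 mesenchymal labels. The left panel gives UMIs per 1000000 UMIs of the label on a log axis with exact 95% Poisson intervals, and the right panel the share of cells with a UMI after each cell was thinned to 1000 UMIs, with Clopper-Pearson intervals. Ackr3 runs from 412 in capFb down to 4.93 in TMC4, Cxcr4 from 0.248 up to 38.0, and Cxcl12 stays between 425.5 and 1124.

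Median depth was highest in capFb as well, and ran in the order of Ackr3 except in TMC4, at 11378.5 UMIs in capFb, 9749 in TMC1, 8269.5 in TMC2, 8143 in TMC3 and 8717 in TMC4. After thinning, an Ackr3 UMI was found in 32.6% of capFb cells (30.1 to 35.1) and 0.480% of TMC4 cells (0.176 to 1.04), and a Cxcr4 UMI in 2.72% of TMC4 cells (1.89 to 3.78) and 0 of 1358 capFb cells, which allows up to 0.271%. Both ligand and scavenger were present in 1058 of 1358 capFb cells. In TMC4, 217 of 1249 cells held both Cxcl12 and Cxcr4, and 9 held both Cxcr4 and Ackr3. In capEC, 48.9% of the 94 cells with Cxcr4 also held Ackr3, against 28.8% of the others. Cells with more UMIs show more of any pair of genes, and depth was not matched in these counts.

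The pathway was followed further through a list of 61 genes, all measured, that holds ligands, receptors and scavengers, proteases that cut the ligand, transcription factors, kinases and arrestins, signalling proteins and other homing receptors. Genes with at least 20 UMIs over both classes were compared at a 2-fold limit. Between TMC4 and the other mesenchymal labels, 11 of 51 listed genes were at least 2-fold higher in TMC4 and 11 lower, where 12.7% of all genes were higher and 11.7% lower. The median log2 ratio of the list was 0.13, against 0.07 over all genes. Higher beside Cxcr4 (23.3-fold, 18.9 to 29.0) were the gelatinase Mmp9, at 17.4 and 1.45 CPM, the hypoxia-inducible factors Epas1 (11.3-fold, 515 and 45.7 CPM) and Hif1a (4.02-fold, 228 and 56.5 CPM), the exit receptor S1pr1 (4.66-fold) and the kinase Jak2 (3.48-fold).

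**Figure D5:**
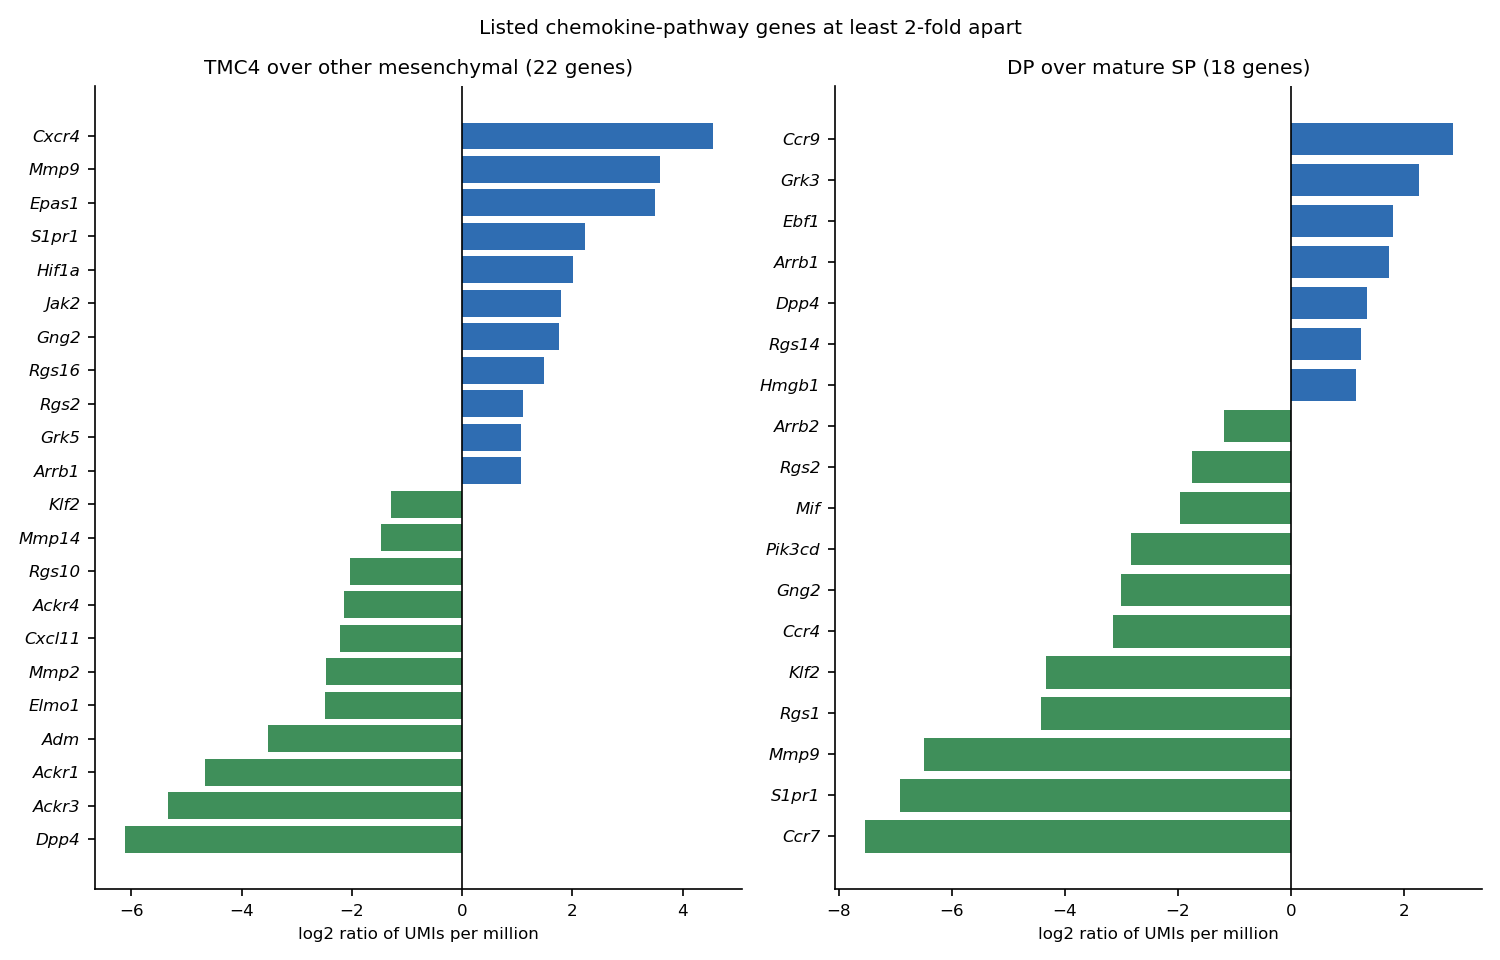
Listed genes of the chemokine pathway that differ at least 2-fold, as log2 ratios of CPM, for TMC4 against the other 4 mesenchymal labels (left, 22 genes) and DP against the 4 mature single-positive labels (right, 18 genes). Bars to the right are higher in the first group. Dpp4 and Ackr3 stand at the low end and Cxcr4 at the high end for TMC4, and Ccr7 and S1pr1 at the low end and Ccr9 at the high end for DP.

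Lower in TMC4 beside Ackr3 (40.3-fold, 31.1 to 53.2) were further members that bind or remove chemokines. Dpp4, a surface protease that cuts and inactivates CXCL12, stood at 3.63 CPM in TMC4 and 253 in the others, 69.6-fold lower. The scavengers Ackr1 and Ackr4, which bind other chemokines, were 25.2-fold and 4.41-fold lower. Adm, which codes for adrenomedullin, another ligand of ACKR3, stood at 9.78 and 113 CPM, 11.5-fold lower. The adaptor Elmo1 was 5.63-fold lower and the matrix protease Mmp2 5.51-fold lower, and Cxcl11, the other chemokine ligand of ACKR3, was 4.63-fold lower on 4 UMIs. In capFb against TMC4 alone, 12 of 48 listed genes were at least 2-fold higher and 13 lower, where 11.6% of all genes were higher and 20.4% lower. Dpp4, at 819.9 CPM in capFb, was 226-fold higher, followed by Ackr3, Ackr1 (56.9-fold), Elmo1 (13.3-fold), Ackr4 (8.81-fold), Mmp2 (6.75-fold) and Adm (5.97-fold). After Cxcr4, the lower ones were led by Epas1 (107-fold), Mmp9 (70.3-fold on 4 UMIs), the G protein regulator Rgs16 (40.3-fold), Gng2 (31.9-fold) and S1pr1 (19.0-fold).

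Between mesenchyme and epithelium, 12 of 57 listed genes were at least 2-fold higher in mesenchyme and 19 lower, where 15.5% of all genes were higher and 24% lower. Without cells of 3 or more thymocyte gene UMIs, 12 of 56 were higher and 16 lower. At a minimum of 100 UMIs, 12 of 50 were higher and 14 lower, and after thinning 11 of 49 were higher and 13 lower. The shares over all genes were not recomputed in these settings. The list's median log2 ratio was -0.35 and that of all genes -0.19. Of the receptors and scavengers, Ackr1 (5.3-fold), Ackr3 (4.51-fold) and Cxcr4 (3.40-fold) were higher in mesenchyme. For Cxcr4 this rests on TMC4, which held 439 of 549 mesenchymal UMIs, and the other 4 mesenchymal labels stood at 1.63 CPM (1.34 to 1.97), beside 2.04 (1.56 to 2.63) in epithelium. Ackr4, a scavenger of the chemokines CCL19, CCL21 and CCL25, was 9.59-fold lower, at 54.8 and 526 CPM. The matrix protease Mmp2 (9.03-fold), Ebf3 (8.87-fold), Dpp4 (8.68-fold), Ebf1 (5.97-fold) and Epas1 (4.91-fold) were also higher. EBF factors are known to act in stromal cells that make CXCL12. Cd74, the class II invariant chain and receptor of the cytokine MIF, was 119-fold lower and the G protein regulator Rgs2 119.8-fold lower. The receptor kinase Grk3 was 62.9-fold, Cxcl11 19.5-fold and Dock2 12.4-fold lower. The homing receptors Ccr7 and Ccr9 were 7.90-fold and 6.02-fold lower on 9 and 10 UMIs.

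Endothelium differed from mesenchyme in both directions too. In mesenchyme 8 of 54 listed genes were at least 2-fold higher and 18 lower, where 18.1% of all genes were higher and 15% lower. Lower in mesenchyme were S1pr1 (53.3-fold), Cxcl11 (23.3-fold), Pik3cg (15.8-fold), Zap70 (12.1-fold), Ackr1 (10.3-fold), the flow-responsive factor Klf2 (10.2-fold), Ccr9 (9.79-fold), Cxcr4 (3.15-fold), Cd74 (2.45-fold) and Cxcl12 (2.44-fold). Higher were the proteases Mmp9 (8.40-fold), Mmp2 (7.27-fold), Mmp14 (6.27-fold) and Dpp4 (6.17-fold), together with Adm (4.54-fold), Ackr4 (2.22-fold) and Ackr3 (2.12-fold).

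Within endothelium few listed genes separated capEC from vEC. Of 45, 5 were at least 2-fold higher in capEC and 2 lower, where 6.35% of all genes were higher and 4.74% lower. After Cxcr4 and Cxcl12, those higher in capEC were the G protein subunit Gng2 (4.22-fold), Adm (3.30-fold) and Klf2 (2.44-fold). Lower in capEC were Cxcl11, at 5.39 and 73.0 CPM, and Ackr1, the venular scavenger also known as the Duffy antigen receptor, at 40.0 and 421 CPM. Veins thus held less Cxcl12 and more Cxcl11, which binds ACKR3 and CXCR3.

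In epithelium, 4 of 53 listed genes were at least 2-fold higher in cTEC and early Pr than in the mTEC labels and 15 lower, where 6.4% of all genes were higher and 16.1% lower. The 4 were Ackr4 (6.18-fold, 791 and 128 CPM), Cxcl12 (3.13-fold), Ackr1 (2.22-fold) and Klf2 (2.15-fold). Cxcl11 was 25.0-fold lower, at 3.39 and 84.7 CPM, and Cxcr4 4.37-fold lower on 14 and 31 UMIs. Cells with at least 3 blood marker UMIs held 7 of 7 Cxcr4 UMIs in mTEC2 and 7 of 10 in mTEC-prol. They held 5 of 14 in mTEC1, 2 of 9 in cTEC and 0 of 5 in early Pr. Their part in the Cxcr4 ratio was not tested. The other large differences were Rgs1 (63.2-fold lower on 5 UMIs), Mmp9 (46.9-fold lower on 8 UMIs), Ctsg (20.1-fold lower) and Rac2 (20.03-fold lower). Ccr7 had 0 UMIs against 26, and was 17.1-fold lower with the 0 put at 3 UMIs.

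Between DP and mature single-positive cells, 7 of 45 listed genes were at least 2-fold higher in DP and 11 lower, where 19% of all genes were higher and 11.2% lower. The median log2 ratio was 0.31 for the list and 0.32 for all genes. Higher in DP beside Ccr9 were Grk3 (4.80-fold), Arrb1 (3.34-fold), which codes for an arrestin, Dpp4 (2.54-fold), Rgs14 (2.37-fold) and Hmgb1 (2.24-fold), and Ebf1 had 55 UMIs in DP and 1 in mature cells. Lower in DP beside Ccr7 and S1pr1 were Mmp9 (90.3-fold), Rgs1 (21.5-fold), Klf2 (20.1-fold), Ccr4, and the CD74 ligand Mif (3.89-fold). Cxcr4 did not pass the limit.

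DN cells differed from DP cells mainly by lower levels. Of 44 listed genes, 3 were at least 2-fold higher in DN and 17 lower, where 18.2% of all genes were higher and 28.7% lower. Mif (5.82-fold), Hmgb1 (3.95-fold) and Rgs16 (2.29-fold) were higher. Ccr9 was 14.2-fold lower, at 35.1 and 499 CPM, Cd74 7.33-fold on 5 UMIs, Arrb1 4.53-fold, Rgs14 3.85-fold, Ccr4 3.78-fold on 5 UMIs and Cxcr4 2.15-fold lower. Cxcr4 and Ccr9 were thus both lower, as shares of RNA, in the earlier cells.

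Likeness of pattern was measured as Pearson's r of log2(CPM + 1) across labels of at least 50 cells. The labels share 1 library and differ in depth, so r is a description. Over 18 stromal labels and 13994 genes, the 5 genes most like Ackr3 were Me3 (0.92), Fbln2 (0.89), Lvrn (0.88), Adamtsl1 (0.88) and Cd34 (0.87), all highest in capFb. Those most like Cxcr4 were Itprip (0.89), Kpna4 (0.88), Adgre5 (0.88), Rcsd1 (0.85) and Rbbp5 (0.85), highest in Thymocyte or Myeloid. Those most like Cxcl12 were Map4k3 (0.88), Tspan9 (0.87), Pls3 (0.87), Zfp608 (0.86) and Glul (0.86), the glutamine synthetase gene.

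The members were also compared with each other, as pairs that were not picked by their r. Across the same 18 labels r was 0.29 between Cxcl12 and Ackr3, -0.22 between Cxcr4 and Cxcl12 and -0.42 between Cxcr4 and Ackr3. Over 17 thymocyte labels and 10801 genes, Cxcr4 was most like Mideas (0.87), Zup1 (0.81), Ppp1r13b (0.81), Rassf3 (0.79) and Vps26c (0.78). The 5 genes most like Cxcl12 there, Rab32, Mycl, Chi3l1, Cxcl10 and Negr1, were all highest in B+myeloid, with r from 0.989 to 0.996, and rest on that label alone.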

How the data were processed

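UMI counts per gene and barcode were deposited by the authors as whole-number counts, made with Cell Ranger 8.0.0 and Seurat 5.3.0 on build mRatBN7.2 per the submitters' processing notes. Total counts and genes per cell were deposited with the authors' annotation. The filters that chose the annotated cells are not given in the sources used here, no doublet caller was run, and the spatial section was not used here. UMIs were summed per label within each library, for labels of at least 20 cells. Ratios against fewer than 3 UMIs used 3 UMIs. Cells under 1000 UMIs, 83 and 51, were left out of thinning (seed 7). The genes, marker lists and pathway list were chosen with earlier results of these data known. Named pathway genes are the 6 with the largest ratios in each direction past 2-fold, and the ligands and receptors past it, of which 1 gene is not reported here. Genes of like pattern are the 5 with the highest r among genes of at least 100 UMIs. The fold rule was tested on simulated data. RefSeq symbols (GRCr8) matched 29433 of 34034 feature names and all 3 genes, and gave sequences alone. Alternatives changed the cell filter, the total, the averaging and the depth. Sums and intervals came from SciPy 1.17.1 and NumPy 2.4.6 under Python 3.11.15, tables from pandas 2.3.3, and figures from matplotlib 3.10.9.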

Additional observations from a re-analysis of the deposited data

Results flagged for a closer look

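The 2934 stromal barcodes without an annotation, which no comparison used, held all 3 genes above the level that 3 UMIs would give (0.346 CPM). Cxcl12 stood at 386 CPM (373 to 399.1), beside 977 in annotated cells. Cxcr4 stood at 9.93 CPM, beside 14.6, and Ackr3 at 36.9 CPM, beside 122. What these barcodes are was not tested.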

How the results depend on the processing

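Each of the 9 main values was recomputed under up to 8 settings, of which the removal of the 28 shared barcodes was chosen after seeing the data, giving 65 values. Of these, 51 stayed within the counting interval or within 1.5 times the count, 12 moved and 2 reversed. A ratio could be called reversed only where its reported interval excluded 1. The ratios of aEC to capEC, capFb to MEC, Mature CD4-2 to Treg and DP to mature cells therefore could not be. The Cxcr4 ratio of Mature CD4-2 to Treg, 1.04 as reported (0.753 to 1.47), was 0.939 without the deepest cells and was counted as stayed. The reversed ones are both of the Cxcr4 ratio of B cell to Thymocyte, 1.21 as reported. It was 0.881 after thinning, on 22 and 54 UMIs, and 0.251 without cells of 3 or more thymocyte gene UMIs. Those genes include Ptprc, which B cells can carry, and the filter spared the Thymocyte label. The Cxcl12 ratio of aEC to capEC was 1.41 by the mean of the CPM of the cells and 1.28 after thinning. The Ackr3 ratio of capFb to MEC was 1.83 after thinning, on 568 and 11 UMIs. The Cxcl12 ratio of mesenchyme to epithelium was 0.665 without the deepest cells, 0.623 by the mean of the CPM of the cells, 0.635 without mitochondrial, ribosomal protein and haemoglobin genes, 0.630 after thinning and 0.664 without cells of 3 or more thymocyte gene UMIs. The Ackr3 ratio of mesenchyme to endothelium was 1.84 by the mean of the CPM of the cells and 1.93 after thinning, and the Cxcr4 ratio of DP to mature cells 0.837 without mitochondrial, ribosomal protein and haemoglobin genes and 1.12 after thinning. The cause was not tested. No paired analysis was possible because there was 1 library in either group. With 1 library per group, differences between animals or preparations cannot be told apart from differences between the libraries, and low levels such as Cxcr4 in vEC rest on 3 UMIs.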
